A study of Mus musculus with 3 samples.

Results

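The hypoxia-inducible factor (HIF) subunits and the genes that regulate them in an oxygen-dependent way were followed in mouse mesenchymal progenitors in culture, on 3 oligonucleotide arrays. The set holds 10 of the 17097 genes with a probe set of their own, namely Hif1a, Epas1, Hif3a, Arnt, Egln1, Egln2, Egln3, Vhl, Hif1an and Cited2, and takes every probe set annotated to exactly 1 of them. This gave 26 probe sets among the 28898 that carried a single gene. The cells were bone-marrow progenitors called PaS+ in the labels, from C56Bl/6 mice aged 8 weeks. They were grown in MesenCult medium in 1% oxygen for 7 days, as the labels give it, and given lentivirus overnight. One array held cells transduced with a short hairpin RNA (shRNA) against HIF-1a, 1 held cells with an shRNA against HIF-2a, and 1 held cells with a control shRNA (shCTR). RNA was taken 4 days after transduction. Low oxygen and lentivirus were common to all 3 groups, and no array of cells in ambient oxygen or without virus was analysed here. The labels give neither the hairpin sequences nor how many mice or cultures stood behind an array.

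HIF is a pair of basic helix-loop-helix PAS proteins, an oxygen-labile alpha subunit (HIF-1a from Hif1a, HIF-2a from Epas1, HIF-3a from Hif3a) and the stable beta subunit from Arnt. When oxygen is plentiful, the prolyl hydroxylases encoded by Egln1, Egln2 and Egln3 mark the alpha subunit, and the VHL protein then recruits a ubiquitin ligase that destroys it. Factor inhibiting HIF, from Hif1an, hydroxylates an asparagine and so blocks the docking of the coactivators CBP and p300, and Cited2 competes with HIF-1a for the same coactivator domain. In low oxygen the alpha subunits accumulate as proteins, so transcript levels as measured here do not report HIF protein or activity. Egln1, Egln3 and Cited2 are themselves known as genes that hypoxia can induce, which makes them part of a feedback loop.

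Values are RMA intensities, the authors' background-corrected and normalised probe-set summaries, on a linear scale. With 1 array per shRNA no replicate existed, so no difference could be tested and none carries a p-value or an error between cultures. The spread between probe sets of the same gene was used as a technical yardstick instead. It was computed for probe sets above the nonspecific level on both arrays, and it was wider under an intensity of 64 than over it. For the HIF-1a shRNA array against control, the pooled SD of the log2 difference was 0.12 at intensities of 64 and over, 0.26 between 16 and 64, and 0.40 under 16. For HIF-2a shRNA against control it was 0.20, 0.37 and 0.42 in the same order, and for HIF-2a against HIF-1a shRNA 0.14, 0.20 and 0.19. The nonspecific level, meaning the brightest of 23 nonspecific control probe sets on any array, was 3.47.

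The arrays also differed as wholes, and this touched the dimmer members. Among all single-gene probe sets that passed the nonspecific level, the median log2 difference from control was 0.11 on the HIF-1a shRNA array and 0.15 on the HIF-2a shRNA array. It was 0.25 and 0.28 for those under 16, 0.13 and 0.17 for those between 16 and 64, and 0.00 and 0.01 for those of 64 and over. Cyclic loess scaling, which removes such a brightness-dependent shift, brought those medians of 0.11 and 0.15 to 0.02 and 0.03, and values after this scaling stand below where they matter. The 18 bacterial and phage hybridisation control probe sets, which read RNA added to the sample, had a median log2 difference from control of 0.08 on the HIF-1a shRNA array and −0.84 on the HIF-2a shRNA array. Their part in the values below was not tested.

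Of the 26 probe sets 14 reached the nonspecific level on at least 1 array, 13 of them on all 3 arrays, and 7 reached 64. They covered 9 of the 10 genes. The other 12 probe sets read between 0.75 and 1.94 on every array, so they carried no level that could be compared. All 5 probe sets of Hif3a were among them, with values from 0.86 to 1.55. Hif3a, whose splice forms include an inhibitor of HIF-1a in mice, was therefore not detectable on these arrays.

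**Figure D1:**
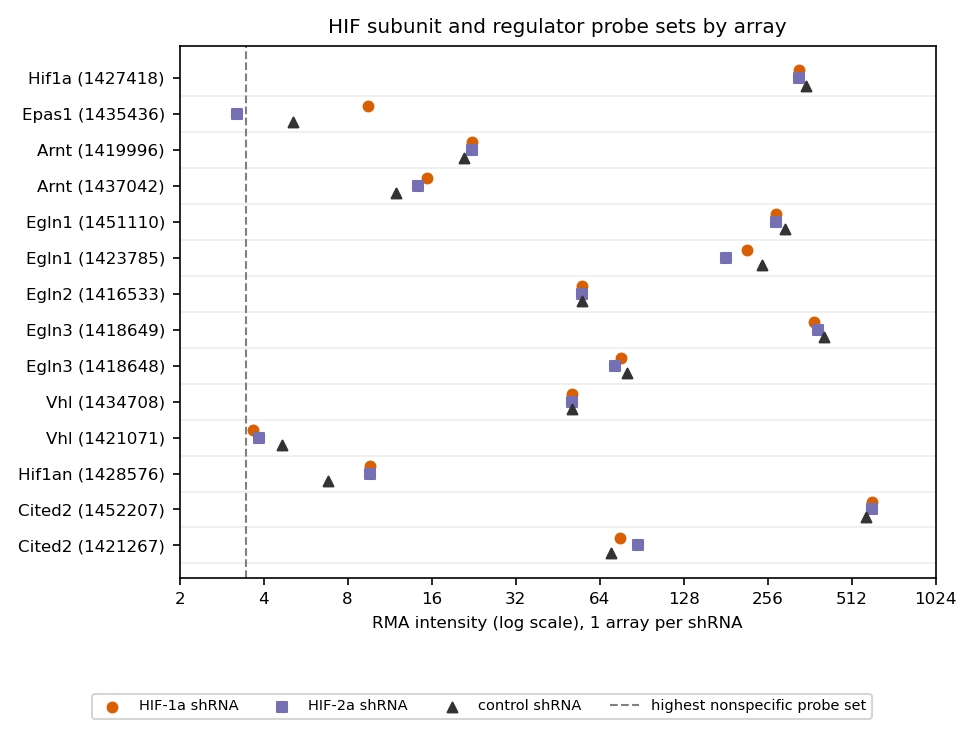
RMA intensity (horizontal, log scale) of the 14 member probe sets that reached the nonspecific level, with 1 point per array: circles HIF-1a shRNA, squares HIF-2a shRNA, triangles control shRNA. The dashed line marks the nonspecific level of 3.47. Within most rows the points nearly coincide, and Epas1 has the widest gap between arrays. Positions of different rows cannot be compared as levels, because probe sets bind with different strength.

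Hif1a is the gene targeted by the first hairpin and so comes first. Its detected probe set, 1427418_PM_a_at, read 332 on the HIF-1a shRNA array, 332 on the HIF-2a shRNA array and 352 on the control array. Both hairpin arrays were thus at 94.4% of control, a log2 difference of −0.08, which is less than the spread between probe sets. The 2 hairpin values were equal to every deposited digit. The second Hif1a probe set, 1431981_PM_at, lay at 1.21 on all 3 arrays, under the nonspecific level. The transcript check therefore did not set the array labelled HIF-1a shRNA apart from the array labelled HIF-2a shRNA, and every direction given for either rests on its label.

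Epas1, the target of the second hairpin, was the member with the widest differences. Its brighter probe set, 1435436_PM_at, read 9.44 on the array labelled HIF-1a shRNA, 3.21 on the array labelled HIF-2a shRNA and 5.09 on the control array. The lowest of these lay on the array whose hairpin targets Epas1 and was under the nonspecific level, even under that array's own highest nonspecific probe set of 3.29. Epas1 was 1.85-fold higher on the HIF-1a shRNA array than on control, or 0.69 on the log2 scale after cyclic loess. Among probe sets whose brighter value was under 16, 24.3% were at least 1.5-fold higher in that comparison, so a rise past 1.5-fold was common at this brightness. The share at least 1.85-fold higher was not counted. On the HIF-2a shRNA array Epas1 was at least 1.47-fold lower than control, with 3.47 standing in for the value under it. The log2 bound was −0.55, and the difference was −0.90 after loess without the bound. Since the yardstick of spread was taken from probe sets above the nonspecific level on both arrays, it does not apply to this value. A second Epas1 probe set, 1449888_PM_at, stayed between 1.346 and 1.497 and gave no reading.

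The direct comparison of the hairpin arrays leaves out the control array. Epas1 read 3.21 on the HIF-2a shRNA array and 9.44 on the HIF-1a shRNA array, at least 2.72-fold lower with the hairpin against HIF-2a. It was the 1 member probe set of 14 that differed at least 2-fold in this comparison. Over all 13190 probe sets tested 0.728% were at least 2-fold lower and 1.16% at least 2-fold higher, and among those under 16 0.413% were at least 2-fold lower. Values under the nonspecific level were first raised to it. A probe set whose brighter value was less than 2-fold above that level could therefore not count in these shares. The share among dim probe sets that could count was not computed, so 0.413% does not show how rare the Epas1 difference was. The log2 bound of −1.44 comes from 1 array of each kind and 1 dim probe set, which passed the nonspecific level through the HIF-1a shRNA array alone. Its value of 9.44 on the HIF-1a shRNA array was shared to the last digit by 79 other probe sets of that array. Its values on the HIF-2a shRNA and control arrays were shared by 0 others. Why values were shared was not tested.

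No member differed 2-fold from control with either hairpin. On the HIF-1a shRNA array 0 of 14 tested member probe sets did so, where 4.37% of all tested probe sets were at least 2-fold higher and 0.0537% at least 2-fold lower. On the HIF-2a shRNA array it was again 0 of 14, against 8.18% higher and 0.447% lower among all tested probe sets. The median over the 14 probe sets was 0.00 on the HIF-1a shRNA array and −0.04 on the HIF-2a shRNA array, next to 0.11 and 0.15 for all tested probe sets. Those sets differ in brightness. For the 7 members that reached 64 the median was −0.08 with either hairpin, next to 0.00 and 0.01 for all probe sets of 64 and over. These comparisons share the control array.

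A looser rule counts differences beyond 1 pooled SD between probe sets of a gene at the same brightness. On the HIF-1a shRNA array 4 of 14 member probe sets passed it (1 each of Epas1, Hif1an, Egln1 and Egln3), where 36.4% of all tested probe sets did. On the HIF-2a shRNA array 4 passed (Epas1, Hif1an, Egln1 and Cited2), against 38.7% of all tested probe sets, and between the hairpins 3 passed (Epas1, Egln1 and Cited2), against 34.0%. Epas1 on the HIF-2a shRNA array was under the nonspecific level, outside the probe sets that gave the SD, so its place in both counts that use that array is no support. The members' shares were not above those of all tested probe sets.

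**Figure D2:**
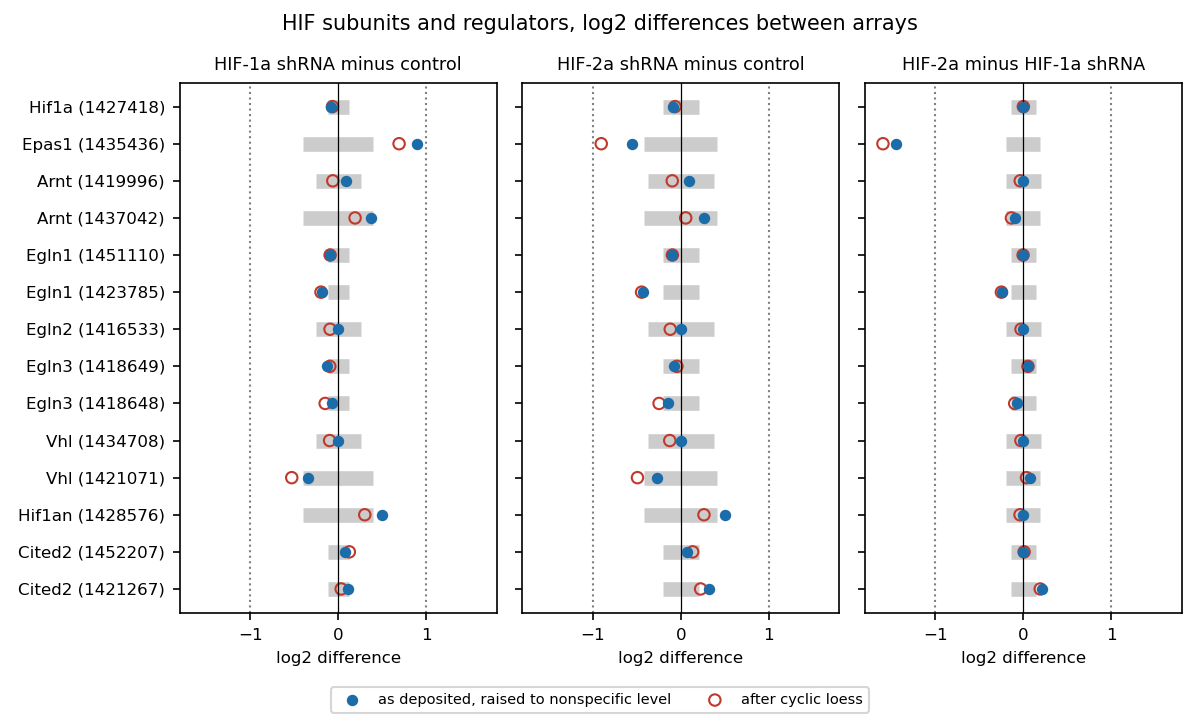
Log2 differences of the same 14 probe sets in the 3 comparisons. Filled points are deposited values raised to the nonspecific level, open points are values after cyclic loess without raising, grey bars span 1 pooled SD between probe sets of a gene on either side of 0, and dotted lines mark 2-fold. Epas1 lies furthest from 0 in every panel, at 0.89, −0.55 and −1.44.

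Arnt encodes the beta subunit that every HIF alpha subunit needs, and 2 of its 5 probe sets were readable. The brighter, 1419996_PM_s_at, read 22.3 on both the HIF-1a shRNA and HIF-2a shRNA arrays and 20.9 on the control array. Its suffix marks probes that can match transcripts of more than 1 gene. Its log2 difference of 0.09 with either hairpin turned to −0.06 and −0.10 after cyclic loess. The other, 1437042_PM_at, read 15.4 with HIF-1a shRNA, 14.4 with HIF-2a shRNA and 11.9 on control, which gave 0.37 and 0.27 as deposited and 0.19 and 0.06 after loess. No direction for Arnt held across both probe sets and both scalings.

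Of the prolyl hydroxylases Egln1 and Egln3 read slightly lower with the hairpins, and Egln2 read the same on every array as deposited. After cyclic loess Egln2 was also lower, at −0.09 with HIF-1a shRNA and −0.12 with HIF-2a shRNA, so the contrast within the family depended on the scaling. Egln1 encodes PHD2, the main oxygen sensor of the family. Its probe set 1451110_PM_at read 275 on both the HIF-1a shRNA and the HIF-2a shRNA array and 294 on control, a log2 difference of −0.10. Its probe set 1423785_PM_at read 215 with HIF-1a shRNA, 182 with HIF-2a shRNA and 244 on control, which gave −0.18 and −0.43. Both probe sets were below control with both hairpins, and the second exceeded the spread between probe sets on each array, with −0.20 and −0.44 after loess. The first probe set did not separate the hairpins at all, whereas the second read 0.24 lower on the log2 scale with HIF-2a shRNA than with HIF-1a shRNA, so the probe sets of Egln1 disagreed on that point. Both carry the same transcript record in the annotation, as do both of Egln3, so they are not independent readings.

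Egln3 encodes PHD3, the family member best known for strong induction by hypoxia. Its probe set 1418649_PM_at read 374 with HIF-1a shRNA, 387 with HIF-2a shRNA and 407 on control. Its probe set 1418648_PM_at read 76.4, 72.5 and 80.5 in the same order. All 4 log2 differences from control were negative, from −0.15 to −0.07, and they stayed negative after loess, from −0.25 to −0.04. The probe sets ordered the hairpin arrays in opposite ways, at 0.05 and −0.08 for HIF-2a against HIF-1a shRNA. Egln2, which encodes PHD1, was read by a single probe set at 55.2 on all 3 arrays.

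Vhl, the substrate-binding part of the ubiquitin ligase, showed the same flat reading on its brighter probe set, 1434708_PM_at, at 51.1 on all 3 arrays. The values of Egln2 and Vhl were equal to the last digit between arrays, and after loess they became −0.09 and −0.10 on the HIF-1a shRNA array and −0.12 and −0.13 on the HIF-2a shRNA array. The dimmer Vhl probe set, 1421071_PM_at, read 3.66 with HIF-1a shRNA, 3.85 with HIF-2a shRNA and 4.64 on control, all just above the nonspecific level. Its log2 differences of −0.34 and −0.27 were within the spread of 0.40 and 0.42 and widened to −0.53 and −0.49 after loess. The control value of 4.64 was held by 637 other probe sets of that array.

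Hif1an, the asparaginyl hydroxylase, was readable on 1 of its 3 probe sets, 1428576_PM_at. It read 9.60 on both the HIF-1a shRNA and HIF-2a shRNA arrays and 6.80 on the control array, 1.41-fold higher with either hairpin. The log2 difference of 0.50 shrank to 0.30 and 0.26 after loess, at a brightness where the median probe set was itself 0.25 and 0.28 higher than control.

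Cited2, the transcriptional brake that competes with HIF-1a for CBP and p300, read higher than control on both probe sets with both hairpins. Its probe set 1452207_PM_at, the brighter, read 608 on each hairpin array and 577 on control, a log2 difference of 0.07. Its probe set 1421267_PM_a_at read 75.6 with HIF-1a shRNA, 87.7 with HIF-2a shRNA and 70.3 on control, which gave 0.11 and 0.32. The last exceeded the spread of 0.20, and after loess the 4 differences ran from 0.03 to 0.22. Among members of 64 or more on at least 1 array, the 5 probe sets of Hif1a, Egln1 and Egln3 were below control and the 2 of Cited2 above it with both hairpins. Both comparisons use the same control array, and most of these differences were within the spread between probe sets. How many of all probe sets of that brightness lay below control was not counted. Their medians were 0.00 with HIF-1a shRNA and 0.01 with HIF-2a shRNA.

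The start regions of the 4 genes that keep these signs are shown because HIF binds a short core, ACGTG or GCGTG, and RefSeq windows (build GRCm38.p6, 250 bases before to 50 after the start) allow that core to be looked for. Lines run 5′ to 3′ in the direction of the gene, and capitals mark every ACGTG or GCGTG on either strand, the other strand reading as CACGT or CACGC. Hif1a lies at chr12:73907617-73907916 on the + strand, Egln1 at chr8:124949205-124949504 on the − strand, Egln3 at chr12:54203825-54204124 on the − strand and Cited2 at chr10:17722978-17723277 on the + strand.
Hif1a: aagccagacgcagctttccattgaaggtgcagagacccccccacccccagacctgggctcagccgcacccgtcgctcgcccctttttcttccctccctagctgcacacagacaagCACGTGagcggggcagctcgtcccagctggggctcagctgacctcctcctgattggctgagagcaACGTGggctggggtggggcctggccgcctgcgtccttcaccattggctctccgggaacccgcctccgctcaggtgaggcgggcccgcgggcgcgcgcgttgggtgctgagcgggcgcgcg
Egln1: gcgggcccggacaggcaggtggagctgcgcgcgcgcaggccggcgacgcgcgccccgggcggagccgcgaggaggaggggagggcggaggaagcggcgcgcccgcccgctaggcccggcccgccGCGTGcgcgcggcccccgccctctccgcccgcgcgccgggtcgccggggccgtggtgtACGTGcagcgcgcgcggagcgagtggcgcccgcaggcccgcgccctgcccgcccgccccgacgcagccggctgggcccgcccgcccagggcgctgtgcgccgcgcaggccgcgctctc
Egln3: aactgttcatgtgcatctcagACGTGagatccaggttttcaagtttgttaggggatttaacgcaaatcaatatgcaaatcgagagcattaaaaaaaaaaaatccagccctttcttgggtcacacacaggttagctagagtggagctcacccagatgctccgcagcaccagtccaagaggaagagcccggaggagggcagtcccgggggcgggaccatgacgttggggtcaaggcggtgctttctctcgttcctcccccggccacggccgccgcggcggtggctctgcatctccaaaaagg
Cited2: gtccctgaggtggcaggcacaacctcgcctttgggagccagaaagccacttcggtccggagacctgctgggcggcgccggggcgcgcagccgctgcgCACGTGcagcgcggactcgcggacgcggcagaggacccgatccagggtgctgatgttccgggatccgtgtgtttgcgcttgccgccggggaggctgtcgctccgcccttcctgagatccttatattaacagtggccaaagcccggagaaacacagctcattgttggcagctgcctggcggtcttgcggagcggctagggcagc

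In the Hif1a and Cited2 windows the capital run CACGTG is 1 core on each strand overlapping the other, and it begins 135 bases before the start of Hif1a and 153 before that of Cited2. Hif1a has a further ACGTG beginning 70 bases before its start. Egln1 has GCGTG at 126 and ACGTG at 68 bases before the start, and Egln3 has a single ACGTG at 229. Windows were found for 9 of the 10 genes, Epas1 being the other, and 7 of the 9 held at least 1 core; those of Vhl and Hif1an held none. Such a core is frequent, since 43.8% of all 32851 windows of this length held one, and a match is a description of the letters, not a binding site.

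**Figure D3:**
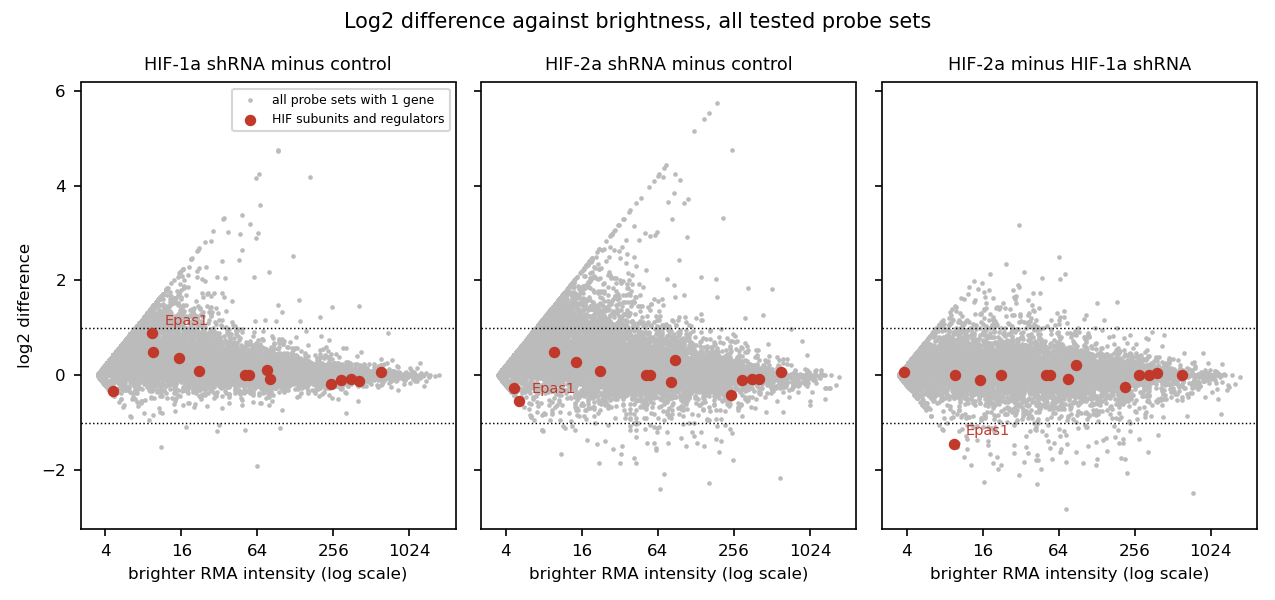
Log2 difference (vertical) against the brighter RMA intensity of the compared arrays (horizontal, log scale) for every tested single-gene probe set (grey) and the 14 member probe sets (red), with dotted lines at 2-fold. Grey points spread upward at low intensity in both comparisons with control. The members lie within the grey cloud, and Epas1 in the right panel is the one beyond the 2-fold line.

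Equal values limited what could be seen. Of the 14 member probe sets 2 were equal on all 3 arrays, and 7 were equal on the HIF-2a shRNA and HIF-1a shRNA arrays. That is 50% of members, next to 31.5% of all tested probe sets. With control, 14.3% of members were equal for either hairpin, next to 19.0% of all tested probe sets for HIF-1a shRNA and 15.0% for HIF-2a shRNA. A small difference may have been lost in such ties.

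Epas1 is also known as a transcript of endothelial cells and fat cells, so markers of those cells were read beside it. Of 7 endothelial markers only Egfl7 reached the nonspecific level, at 5.45 with HIF-1a shRNA, 5.45 with HIF-2a shRNA and 4.64 on control. The defining endothelial genes Pecam1, Cdh5, Kdr, Tek and Tie1 were between 0.86 and 1.35 on all arrays. The summed level of adipocyte markers, in contrast, followed the order of Epas1. Over the 4 genes with a probe set of their own it was 653 with HIF-1a shRNA, 241 with HIF-2a shRNA and 474 on control. Fabp4 and Lpl were far brighter than the others and so carried that sum, while Adipoq was lowest on control.

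Lpl, the lipoprotein lipase, read 224 with HIF-1a shRNA, 53.2 with HIF-2a shRNA and 149 on control. Adipoq, the adipocyte hormone adiponectin, read 10.0025, 3.499 and 3.004 in the same order, and Fabp4, a fatty-acid carrier, 394, 164 and 298. Pparg, the master regulator of fat cells, read 24.7, 20.1 and 24.4. Plin1, also on the list, had no probe set of its own and was not read. Between the hairpins 3 of the 4 genes read were at least 2-fold lower with HIF-2a shRNA, next to 0.834% of all genes tested. The part of these adipocyte genes in the Epas1 result was not tested. In a bulk sample fewer cells of a type cannot be told apart from less RNA per cell.

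Of 12 mesenchymal progenitor markers 11 had a probe set of their own, and all 11 were readable on each array. Ly6a had none and was not read. Pdgfrb, a receptor of mural and mesenchymal cells, read 14.6 with HIF-1a shRNA, 6.95 with HIF-2a shRNA and 7.88 on control. Col1a1 read 127, 48.1 and 130 in the same order and Cxcl12 178, 72.3 and 250, so both were lowest on the HIF-2a shRNA array. Others read higher there than on control, with Cd44 at 577 against 500.5 and Pdgfra, a growth factor receptor of mesenchymal cells, at 47.9 against 38.2. Over the 11 markers the median log2 difference from control was 0.11 with HIF-1a shRNA and 0.00 with HIF-2a shRNA, the last with 4 above 0, 5 below and 2 equal. Between HIF-2a and HIF-1a shRNA the median was −0.12, and Pdgfrb, Col1a1 and Cxcl12 were the 3 of 11 at least 2-fold lower, with 0 at least 2-fold higher. Over all genes tested in that comparison 0.834% were at least 2-fold lower and 1.18% at least 2-fold higher. Tagln, a smooth muscle marker, had no probe set of its own and was not read. Of the 5 smooth muscle and pericyte markers that were read only Acta2 was above the nonspecific level, at 429, 233 and 374. That is the order of Epas1 as well. Of 5 osteoblast markers Runx2 and Alpl were not read, for want of a probe set of their own. The 3 that were read, Bglap, Sp7 and Ibsp, were under the nonspecific level on all arrays. Of 8 blood-cell markers Cd14 was above it throughout, at 87.8 to 93.4, and Cd68 with HIF-2a shRNA alone, at 7.24, while Ptprc was at 1.05. Of the 3 erythroid markers with a probe set of their own only Tfrc was above it, at 153 on all 3 arrays. Tfrc encodes a transferrin receptor that dividing cells of many types express.

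**Figure D4:**
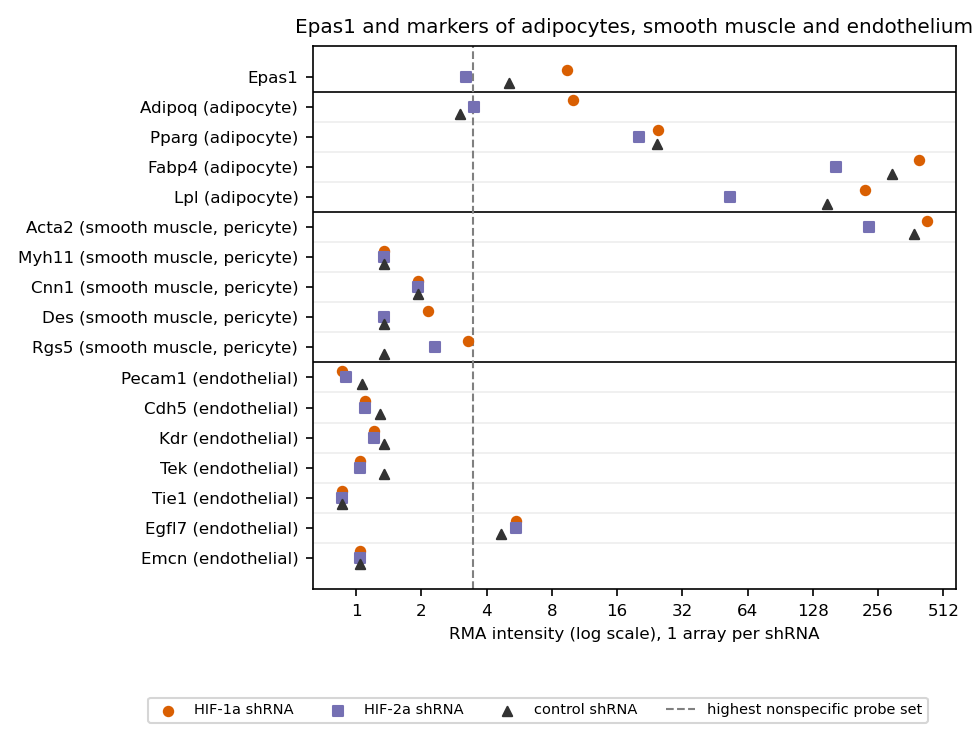
RMA intensity (horizontal, log scale) of Epas1 and of marker genes for adipocytes, smooth muscle and pericytes, and endothelium, with 1 point per array: circles HIF-1a shRNA, squares HIF-2a shRNA, triangles control shRNA. The dashed line is the nonspecific level of 3.47. Epas1, Fabp4, Lpl and Acta2 share the order HIF-1a shRNA, control, HIF-2a shRNA from bright to dim, and all endothelial markers but Egfl7 are left of the dashed line.

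Genes whose differences from control lay nearest to those of Epas1 were sought among 2412 genes of like brightness, by Euclidean distance over its log2 differences with both hairpins, that is over 3 arrays. The nearest was Peg3, a paternally expressed zinc finger gene, at a distance of 0.20, with 7.78 on the HIF-1a shRNA array, 2.10 on the HIF-2a shRNA array and 4.64 on control. Next came Htra4, a secreted serine protease gene, at a distance of 0.25, with 12.1, 4.14 and 7.09, and Rtl8a, derived from a retrotransposon, at 0.32, with 14.4, 5.57 and 9.33. Each was highest with HIF-1a shRNA and lowest with HIF-2a shRNA. That order follows from choosing genes by nearness to Epas1, so it is not a separate result. The Peg3 value on the HIF-2a shRNA array was under the nonspecific level, so its difference from control there is a bound.

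Other genes of the pathway were read by the brightest probe set of each gene. Over all genes tested, 4.08% were at least 2-fold higher and 0.0568% lower with HIF-1a shRNA than on control, and 7.62% higher and 0.518% lower with HIF-2a shRNA. Between HIF-2a and HIF-1a shRNA 1.18% were higher and 0.834% lower. The median log2 difference of all genes from control was 0.10 with HIF-1a shRNA and 0.14 with HIF-2a shRNA.

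Partners of VHL in its ubiquitin ligase were all readable and none of the 8 differed 2-fold in any comparison. Their median log2 difference from control was 0.0038 with HIF-1a shRNA and 0.17 with HIF-2a shRNA, where 7 of 8 were above 0. Ube2d3, a ubiquitin-conjugating enzyme, read 388 with HIF-1a shRNA, 480 with HIF-2a shRNA and 391 on control, and Eloc, the elongin C adaptor that binds VHL, read 337, 364 and 328. Genes that raise or lower the stability of HIF or the prolyl hydroxylases gave 0 of 9 tested past 2-fold and a median of 0.05 with either hairpin. The chaperone gene Hsp90aa1, which protects HIF-1a, read 301 with HIF-1a shRNA, 356 with HIF-2a shRNA and 343 on control, and Stub1, a chaperone-linked ubiquitin ligase, 145, 145 and 152.

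Among coactivators and CITED genes 7 were tested, 1 at least 2-fold higher with HIF-1a shRNA and 2 with HIF-2a shRNA, and none lower. Ncoa1, a nuclear receptor coactivator that also binds HIF, read 16.9 with HIF-1a shRNA, 14.9 with HIF-2a shRNA and 4.62 on control, 3.67-fold and 3.23-fold higher. Ncoa3, of the same family, read 8.92 with HIF-2a shRNA and 2.83 on control, at least 2.57-fold higher. The brightest of the list, Pkm, the pyruvate kinase reported to assist HIF-1a in human cells, read 631 with HIF-1a shRNA, 689 with HIF-2a shRNA and 711 on control. Cdk8, a Mediator kinase, read 65.0, 66.3 and 63.3. Both genes past 2-fold were dim on control, in the range where many probe sets read higher with the hairpins.

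Of 12 other bHLH-PAS genes 6 were tested with HIF-1a shRNA and 5 with HIF-2a shRNA. Ahrr, the repressor of the dioxin receptor, read 10.7 with HIF-1a shRNA, 7.40 with HIF-2a shRNA and 3.22 on control, at least 3.07-fold and at least 2.13-fold higher, though its 0.96 after loess with HIF-2a shRNA is under 2-fold. Sim2, a developmental factor that can pair with ARNT, read 7.18 with HIF-1a shRNA and 1.71 on control, at least 2.07-fold higher. At 3.15 with HIF-2a shRNA, against 7.18 with HIF-1a shRNA, it was at least 2.07-fold lower in the direct comparison. The brightest, Ahr, the dioxin receptor, read 130, 128 and 126 on the HIF-1a shRNA, HIF-2a shRNA and control arrays. Bmal1, a clock factor, read 31.1, 31.1 and 34.97 in the same order, and Clock, its partner, 26.04, 30.86 and 19.45, so these 2 differed from control in opposite directions.

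HIF target genes, the downstream readout, gave 0 of 18 tested past 2-fold in each comparison. Their median log2 difference from control was −0.07 with HIF-1a shRNA, with 12 below 0, 1 above and 5 equal, and −0.03 with HIF-2a shRNA, with 10 below, 5 above and 3 equal. Of the 18 genes 16 reached 64, where the median of all probe sets was 0.00 and 0.01 in the same order. How many of all genes lay below control was not counted, nor were the signs after cyclic loess, so these counts show no lowered readout. Ldha, the lactate dehydrogenase subunit, read 1149 on all 3 arrays. Bnip3, a mitophagy receptor, read 867 with HIF-1a shRNA, 858 with HIF-2a shRNA and 867 on control. Egln1 and Egln3, themselves targets, lay on their brightest probe sets within the range of this list. That range ran from −0.43 to 0.05 with HIF-1a shRNA and from −0.32 to 0.35 with HIF-2a shRNA. Its lower end with HIF-1a shRNA came from Car12, which was dim at 8.30 against 11.2 on control. The dimmer Egln1 probe set, at −0.43 with HIF-2a shRNA, lay below the range.

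Interferon-response genes showed large differences on the same arrays. Of the interferon-response genes tested 14 of 15 were at least 2-fold higher with HIF-1a shRNA than on control and 15 of 16 with HIF-2a shRNA, with medians of 2.61 and 3.90. Ifit1 was at least 27.0-fold and at least 53.7-fold higher, Usp18 at least 18.9-fold and 42.4-fold, Rtp4 18.1-fold and 26.8-fold, and Ifit3 at least 17.8-fold and 35.7-fold. Between HIF-2a and HIF-1a shRNA 6 of 16 were at least 2-fold higher. The 10 genes that process hairpin RNA had medians of 0.06 and 0.28, and 1 passed 2-fold, Prkra, which encodes the PACT protein that binds Dicer and also activates the antiviral kinase PKR, at 14.4 on both hairpin arrays and 4.64 on control, 3.10-fold higher. The brightest of these, Ago2, the slicing Argonaute, read 58.1, 58.1 and 57.7, and Ago1 28.04, 29.90 and 25.98. The part of the interferon difference in the members' values was not tested.

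**Figure D5:**
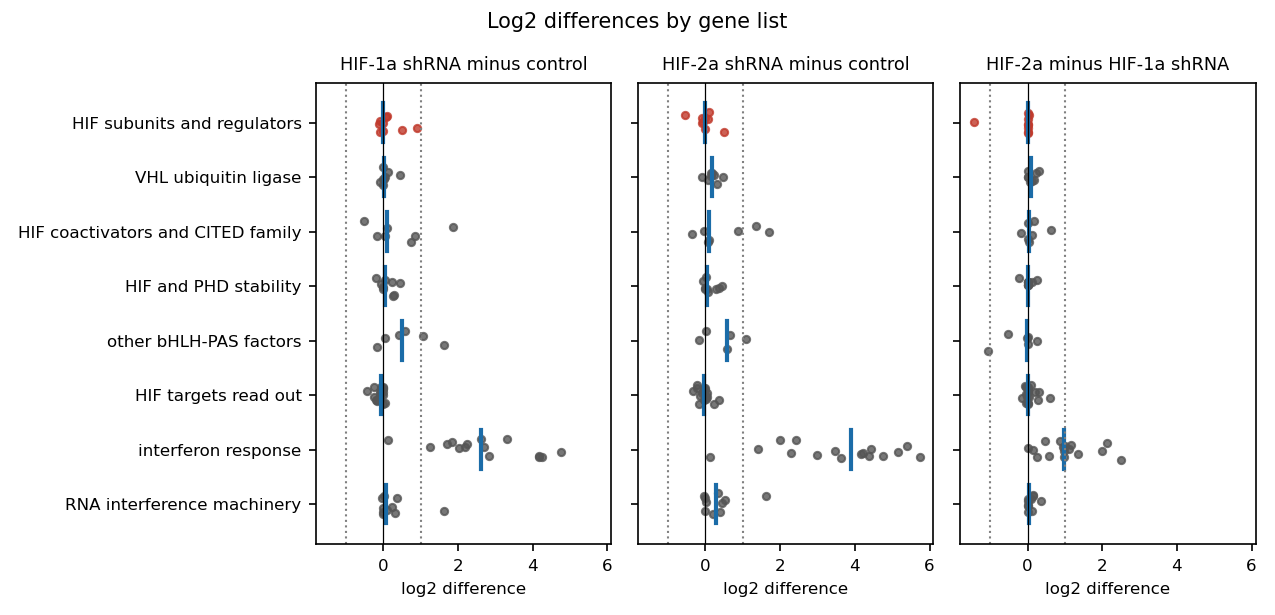
Log2 differences per gene (brightest probe set, values raised to the nonspecific level) in the 3 comparisons for the HIF subunits and regulators (red, 9 genes) and for 7 lists of other genes (grey). Blue bars are list medians and dotted lines mark 2-fold. Medians of the other bHLH-PAS factors are 0.50, 0.57 and −0.01, and those of the interferon list 2.61, 3.90 and 0.98, while single coactivators such as Ncoa1 lie beyond 2-fold from control.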

How the data were processed

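The 3 single-colour Affymetrix arrays, 1 per shRNA, were assigned from their titles. The authors deposited 1 table of 45141 probe sets with intensity values made by RMA, per the submitters' processing notes; which version and settings they used is not given in the sources used here. The values are linear intensities, from 0.63 to 1747, and log2 was taken with no further scaling. Genes came from the platform's annotation, with symbols updated by Entrez ID through RefSeq (28689 of 28898 single-gene probe sets matched).

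A probe set was tested where the brighter of the compared arrays reached 3.47, the highest nonspecific value, and lower values were raised to it before a fold, which is then a bound. A difference of at least 2-fold was counted. With 1 array per group no p-value was computed, and precision is limited by the number of arrays. The members, and the lists of other genes and markers, were chosen with earlier results of these data known. All members were named, with list genes past 2-fold (at most 4 per list, the largest), the 2 brightest of each pathway list and the 3 genes nearest to a member that differed by at least 0.5. Clock, Pdgfrb, Col1a1, Cxcl12 and the other markers given with values were named after their values were seen. Of the list genes 18 had no probe set of their own. Cyclic loess came from limma 3.58.1 in R 4.3.3, and the rest from pandas 2.3.3 in Python 3.11.15. The fold count was tested on simulated data.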

Additional observations from a re-analysis of the deposited data

How the results depend on the processing

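The counts of member probe sets past 2-fold were recomputed under 8 alternatives. For HIF-2a shRNA against control the count stayed at 0 under all of them. For HIF-1a shRNA against control it was 1 in place of 0 with a threshold of 1.5-fold, the added probe set being Epas1. For HIF-2a against HIF-1a shRNA it was 0 in place of 1 with a minimum of 16, with a minimum of 64 and with 32 added before log2, since Epas1 never reached 16; it stayed at 1 under the other 5. Among the single genes, 32 added before log2 took Epas1 to 0.16 with HIF-1a shRNA and −0.075 with HIF-2a shRNA against control. Between the hairpins it took Epas1 to −0.23. Averaging all probe sets took Epas1 between the hairpins to −0.85, and Hif1an against control to 0.04 with either hairpin. The averages of these genes take in probe sets under the nonspecific level, which carried no level that could be compared. Cyclic loess turned the sign of the brighter Arnt probe set in both comparisons with control, as given above. Averaging turned the small Egln3 difference between the hairpins to −0.01. No paired analysis was possible because each group held 1 array. Members under 64 were limited by signal over background, and ties between arrays hide small differences.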
